A study of Mus musculus with 6 samples.

Results

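Cytosolic ribosomes read mRNA and join amino acids into protein, and their large and small subunits are each built from ribosomal RNA and a set of ribosomal proteins. The genes of these proteins are among the most abundant mRNAs of a growing cell, their products are made in near-equal amounts, and many of their mRNAs begin with a pyrimidine tract through which growth signals control translation. A few have paralogs best known from particular tissues, such as Rpl10l and Rpl39l from the mouse testis and Rpl3l from striated muscle. Rpl10l and Rpl39l also had reads in every library of the present data. The genes were taken from the deposited table by name. They were the symbols that begin with Rpl or Rps and a digit, together with Rplp0, Rplp1, Rplp2 and Rpsa, without Rps6k kinases, pseudogene names and Rps27l. This gave 87 of the 24421 genes in the table, of which 53 belong to the large subunit and 33 to the small subunit. The remaining one, Rps19bp1, encodes a binding partner of Rps19 and is not a ribosomal protein.

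Polyadenylated RNA was sequenced from 3 libraries of Pml-/- cells (Pml KO) and 3 libraries of wild-type cells (WT), all from E14, a mouse embryonic stem cell line. All cells grew in serum with leukemia inhibitory factor, the GSK3 inhibitor CHIR99021 and the MEK inhibitor PD0325901. Pml encodes the scaffold of PML nuclear bodies, and the comparison asks which transcripts differ when it is disrupted. The labels do not say how Pml was disrupted or whether the replicates were separate cultures or clones, and the names of the KO columns share 1 prefix. The p-values therefore speak of library-to-library spread alone, and that spread may be technical. Levels are in CPM, a gene's reads set to one common library total. Group values are mean ± SD with n = 3 in each. Log2 fold changes are Pml KO over WT, computed on log2(CPM + 1), so those of low genes come out too small.

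The Pml KO libraries held between 5845653 and 8693079 reads and the WT libraries between 9389186 and 11046725. Pml itself was at 76.3 ± 0.912 CPM in Pml KO and 191 ± 4.09 CPM in WT. The embryonic stem cell markers Pou5f1, Nanog and Sox2 were present in every library and did not pass the test. The 8 markers of this list summed to between 7159 and 7320.5 CPM in Pml KO libraries and between 6950.4 and 7125 CPM in WT libraries, and Klf4 and Tdgf1 were higher in Pml KO. Of 8 fibroblast markers, Postn was at 0 in every library, Lum at 0 in Pml KO and 0.0355 ± 0.0615 CPM in WT, and Col1a1 and Col1a2 were also below the filter. The 4 tested, Fn1, Pdgfrb, Thy1 and Vim, split 2 higher and 2 lower in Pml KO, with sums between 1340.1 and 1371 CPM in Pml KO and between 1235 and 1307 CPM in WT. All 5 tested of 7 markers of the 2-cell-like state were higher in Pml KO, with sums between 123 and 134 CPM, against 47.5 to 49.6 CPM in WT. Of 6 primitive endoderm markers 3 were tested and Lamb1 was higher, with sums between 109 and 126 CPM in Pml KO and between 97.6 and 103 CPM in WT. The part of these marker differences in the results below was not tested. In bulk RNA, fewer cells of a kind and less RNA per cell cannot be told apart.

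The ribosomal protein genes together took 9.53% ± 0.213 of the reads in Pml KO and 9.76% ± 0.113 in WT. This is a share of counted reads, in which Rpl26, Rpl30, Rpl34 and Rps27 stand near 0, values not read as levels below. How reads were split among gene copies could also alter it. The summed level was 93867, 97751 and 94305 CPM in Pml KO replicates 1, 2 and 3, and 97446, 98745 and 96504 CPM in WT replicates 1, 2 and 3. Pml KO replicates 1 and 3 lay below all WT libraries, and Pml KO replicate 2 lay among them. The log2 ratio of the means was -0.034 (exact two-sided permutation p = 0.3, where 3 against 3 libraries allow no p below 0.1). Large-subunit genes summed to 55503 ± 1075 CPM in Pml KO and 56876 ± 679 CPM in WT, and small-subunit genes to 39772 ± 1066 CPM in Pml KO and 40659 ± 497 CPM in WT (exact permutation p = 0.3 for each). The ratio of large to small sums was 1.396 ± 0.0124 in Pml KO and 1.399 ± 0.00972 in WT (exact permutation p = 0.7), so a shift in the balance of the subunit mRNAs beyond the spread between libraries was not detected.

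Of the 87 genes, 82 passed the filter on low values and were tested with limma over all 12435 tested genes, 50 of the large subunit, 31 of the small subunit and Rps19bp1. At a Benjamini-Hochberg adjusted p under 0.05, 6 were lower in Pml KO, 1 was higher and 75 did not pass. Of the 6 lower genes 5 are described here, and Rpl10l was the higher one. These are 7.32% lower and 1.22% higher, against 7.49% lower and 6.54% higher among all tested genes. EdgeR's quasi-likelihood test on the recovered reads called 7 lower and 1 higher, against 7.92% and 6.71% of all tested genes. In the authors' deposited table, 5 were lower and 1 was higher at an FDR under 0.05, against 7.27% and 4.99% of the same genes in the authors' deposited table. In each of these the share of lower calls was near that of all genes. With the replicate number as a block in limma it was larger, with 18 of 82 lower, against 1199 of 12435 genes. The median SE of the log2 fold change in the main test was 0.026 for the tested members, against 0.079 for all tested genes. Smaller differences could thus be called among the members, and near-equal shares of calls do not mean near-equal changes. Of the 75 genes that did not pass, 74 had means within 10% of WT in Pml KO. Rps19bp1 was among them, at 32.4 ± 1.63 CPM in Pml KO and 30.5 ± 2.99 CPM in WT (limma adjusted p = 0.523). The exception was Rpl3l, the muscle paralog of Rpl3, at 3.04 ± 0.582 CPM in Pml KO and 2.21 ± 0.102 CPM in WT.

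**Figure D1:**
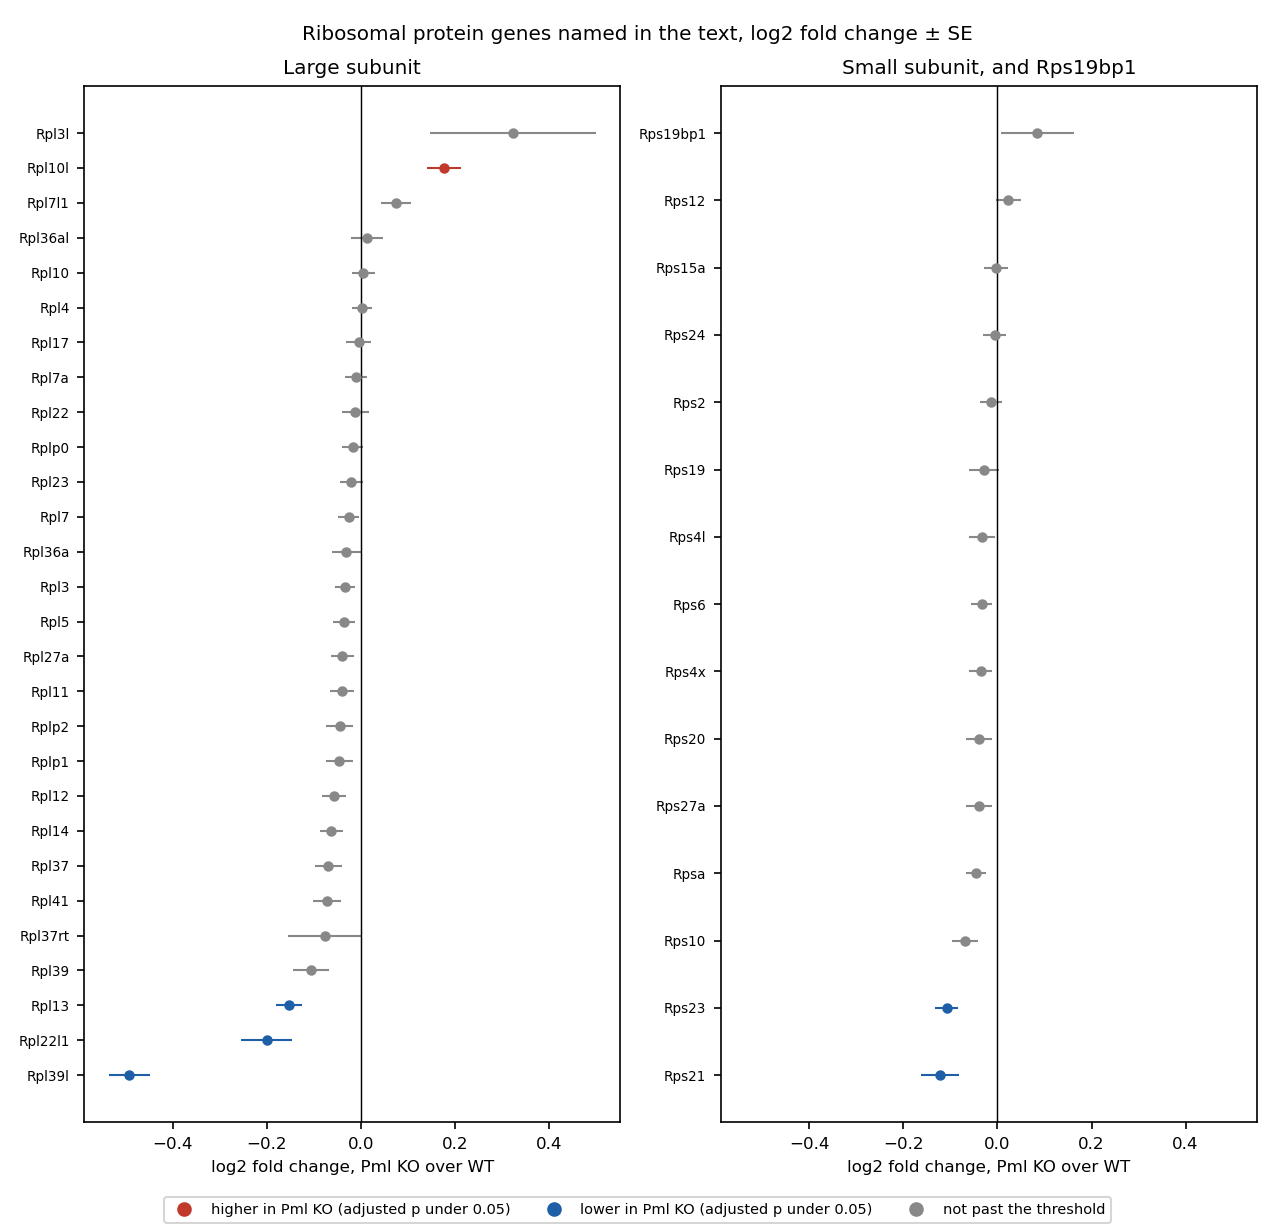
Log2 fold change (Pml KO over WT, limma on log2(CPM + 1)) with its SE, by subunit and in order of value, of 43 of the 82 tested genes, those named in the text. Blue points were lower in Pml KO, the red point is Rpl10l, higher in Pml KO, and grey points did not pass; most grey points lie slightly left of 0.

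Rpl39l showed the largest difference among the called genes. It is a paralog of Rpl39, which lines the exit tunnel of the large subunit, and lies on mm10 chromosome 16 from 10170228 to 10174911. Its level was 86.8, 85.7 and 84.9 CPM in Pml KO replicates 1, 2 and 3, and 123, 123 and 118 CPM in WT replicates 1, 2 and 3. The 3 Pml KO libraries lay close together and well below all 3 WT libraries. The mean was 85.8 ± 0.933 CPM in Pml KO and 121 ± 2.70 CPM in WT, a difference of -29.2% (log2 fold change -0.49, SE 0.0436, limma adjusted p = 1.07e-09). The authors' deposited table gives a log2 fold change of -0.51 with an FDR of 2.96e-25 for Rpl39l. Of the 50-base stretches of the Rpl39l transcript, 0% occurred in a transcript of another gene of GENCODE M21, against 16.5% for Rpl39.

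The partner Rpl39, on chromosome X, had 442, 475 and 405 CPM in Pml KO, against 491, 461 and 468 CPM in WT. Its groups overlapped, with Pml KO replicate 2 inside the WT range. It did not pass limma (log2 fold change -0.11, SE 0.0387, adjusted p = 0.0676). Its adjusted p was 0.0315 in edgeR and 0.479 in DESeq2, and its FDR in the authors' deposited table was 0.466. Without Pml KO replicate 2 limma gave -0.16 (adjusted p = 0.00094), and without Pml KO replicate 3 it gave -0.046 (adjusted p = 0.48). Rpl39l made up 16.4%, 15.3% and 17.3% of the summed CPM of the pair in Pml KO, and 20.0%, 21.0% and 20.1% in WT. The means were 16.3% ± 1.02 in Pml KO and 20.4% ± 0.551 in WT, a difference of -4.04 percentage points with no overlap. Leaving out 1 library at a time gave differences of -4.54 to -3.52 percentage points. The exact permutation p was 0.1, the smallest possible, and 0.2 after adjustment over the 8 pairs compared. The coding sequences of both genes, shown because the pair holds the largest difference, have 156 bases each and differ at 23 of them (85.3% identical). They were read from GENCODE M21 (GRCm38), 5′ to 3′, and capitals mark the bases that differ between the paralogs.
Rpl39l, chr16:10174310-10174465, plus strand: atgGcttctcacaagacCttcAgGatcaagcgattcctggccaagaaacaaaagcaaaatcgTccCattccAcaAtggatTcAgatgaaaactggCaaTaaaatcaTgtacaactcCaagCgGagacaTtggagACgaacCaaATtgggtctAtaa
Rpl39, chrX:37082701-37085127, minus strand: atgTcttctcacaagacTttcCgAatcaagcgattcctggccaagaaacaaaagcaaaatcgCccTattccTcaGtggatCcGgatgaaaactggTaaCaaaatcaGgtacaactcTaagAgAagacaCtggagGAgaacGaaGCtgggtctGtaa
The Rpl39 range spans its introns, and the differing bases are spread along the whole sequence.

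Rpl10l was the gene higher in Pml KO. It is a paralog of X-linked Rpl10, a late-joining protein of the large subunit, and is needed in mouse male meiosis, when the X chromosome is silent. It lies on chromosome 12 from 66283379 to 66284401. It had 228, 228 and 216 CPM in Pml KO replicates 1, 2 and 3, and 199, 199 and 195 CPM in WT replicates 1, 2 and 3. All Pml KO libraries were above all WT libraries. The mean was 224 ± 6.70 CPM in Pml KO and 198 ± 2.77 CPM in WT (log2 fold change 0.18, SE 0.0356, limma adjusted p = 0.00084). For Rpl10l the authors' deposited table has a log2 fold change of 0.16 with an FDR of 0.00103. Rpl10 was at 1479 ± 31.6 CPM in Pml KO and 1475 ± 35.2 CPM in WT and did not pass (limma adjusted p = 0.93). The share of Rpl10l in the pair was 13.1% ± 0.123 in Pml KO and 11.8% ± 0.118 in WT, with no overlap (exact permutation p = 0.1, adjusted 0.2). Of the 50-base stretches of Rpl10l, 7.60% occur in other genes' transcripts, against 92.1% for Rpl10. The level of Rpl10 is therefore uncertain where the counting split reads among its copies.

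Rpl13, a protein of the large subunit (chromosome 8, 123102350 to 123105242), was lower in Pml KO. It had 1503, 1634 and 1540 CPM in Pml KO, against 1768, 1756 and 1676 CPM in WT. Every Pml KO library was below every WT library. Limma put Rpl13 at a log2 fold change of -0.15 with an SE of 0.0272 (adjusted p = 0.000191). Of all 649 tested genes on chromosome 8, 90 were lower and 17 higher in Pml KO, with a median log2 fold change of -0.056, against 0.0046 over all tested genes. The part of that chromosome-wide difference in the Rpl13 call was not tested. Of Rpl13's 50-base stretches 80.3% occur in transcripts of 15 other genes, so how reads were split among copies could alter its level.

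In the small subunit, Rps23 and Rps21 passed. Rps23 (chromosome 13, 90923122 to 90924732), which sits at the decoding centre, had 1206, 1247 and 1250.3 CPM in Pml KO and 1301, 1366 and 1326 CPM in WT. Its groups did not overlap (log2 fold change -0.11, SE 0.0249, limma adjusted p = 0.00321). Rps21 (chromosome 2, 180257379 to 180258444), a protein of the small subunit found in eukaryotes, had 470.0, 523 and 454 CPM in Pml KO and 558, 524 and 493 CPM in WT. Its groups overlapped, since Pml KO replicate 2 stood level with WT replicate 2. It was lower in Pml KO by limma (log2 fold change -0.12, SE 0.0406, adjusted p = 0.0399), but the adjusted p was over 0.05 in 8 of 16 alternative analyses, which included leaving out either of Pml KO replicates 1 and 3 (adjusted p 0.106 and 0.273) or WT replicates 1 and 2 (0.283 and 0.0884). Of the 50-base stretches, 51.7% of those of Rps23 and 26.4% of those of Rps21 occur in other genes' transcripts.

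Rpl22l1 (chromosome 3, 28805505 to 28807415), a paralog of Rpl22 that rises in mice lacking Rpl22, had 118, 111 and 100.3 CPM in Pml KO and 137, 124 and 116 CPM in WT. The groups overlapped, because Pml KO replicate 1 was above WT replicate 3. Limma gave a log2 fold change of -0.20 (SE 0.0545, adjusted p = 0.0122). The adjusted p was 0.131 without Pml KO replicate 3 and 0.141 without WT replicate 1. Of its 50-base stretches 61.6% occur in transcripts of 4 other genes. Rpl22 itself was at 510 ± 10.9 CPM in Pml KO and 514 ± 8.08 CPM in WT (limma adjusted p = 0.839). The share of Rpl22l1 in the pair was 17.7% ± 1.09 in Pml KO and 19.7% ± 1.09 in WT (exact permutation p = 0.2, adjusted 0.32). This share is of CPM and is not adjusted for length. The annotated transcripts have 525 bases for Rpl22l1 and 2051 for Rpl22. Per kilobase, Rpl22l1 stood at 209 ± 16.7 CPM in Pml KO and 240 ± 20.3 in WT. Rpl22 stood at 249 ± 5.30 CPM per kb in Pml KO and 251 ± 3.94 in WT.

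**Figure D2:**
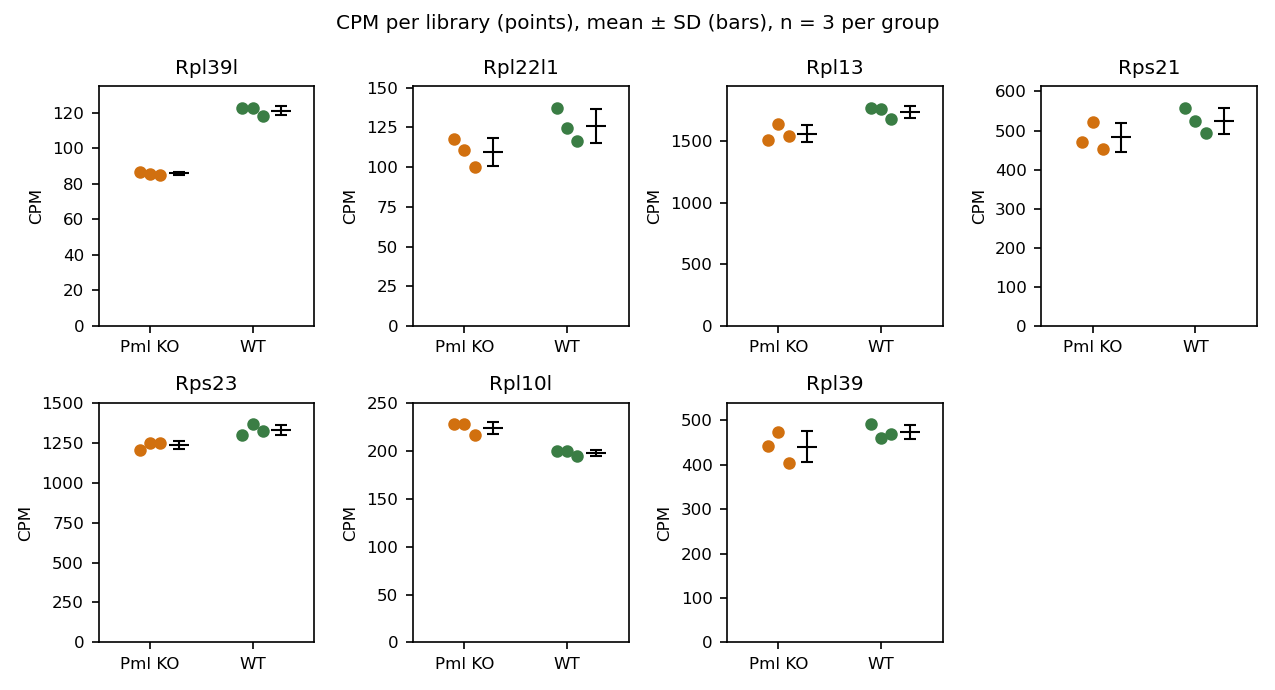
CPM of 6 of the 7 genes past the threshold and of Rpl39 in each library (points, Pml KO left, WT right), with mean ± SD (bars, n = 3). For Rpl39l, Rpl13 and Rps23 every Pml KO point is below every WT point, for Rpl10l every one is above, and for Rpl22l1, Rps21 and Rpl39 the groups overlap.

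Of the 5 remaining pairs, Rpl7l1 and Rpl3l had shares without overlap, both higher in Pml KO. Rpl7l1, a relative of Rpl7 whose yeast counterpart acts in ribosome assembly, made up 17.5% ± 0.0506 of its pair in Pml KO and 16.5% ± 0.481 in WT, with no overlap (exact permutation p = 0.1, adjusted 0.2). Its own log2 fold change was 0.075 (SE 0.0316) and did not pass (limma adjusted p = 0.118). Rpl3l made up 0.112% ± 0.0215 in Pml KO and 0.0797% ± 0.00226 in WT (exact permutation p = 0.1, adjusted 0.2), from 67 reads of Rpl3l in all Pml KO libraries and 68 in all WT libraries. Rpl36al made up 34.9% ± 0.831 of the pair with X-linked Rpl36a in Pml KO, which was 0.698 percentage points above the WT mean (SD in WT 0.527), and the groups overlapped (exact permutation p = 0.4). Rps4l stood at 22.2% ± 0.569 of the pair with X-linked Rps4x in Pml KO and 22.2% ± 0.247 in WT (exact permutation p = 0.8). Rpl37rt stood at 3.93% ± 0.139 of the pair with Rpl37 in Pml KO and 3.95% ± 0.0627 in WT (exact permutation p = 0.7). Of the 50-base stretches, 9.19% for Rpl7l1, 0% for Rpl3l, 63.3% for Rpl36al, 14.9% for Rps4l and 73.8% for Rpl37rt occur in other genes' transcripts. For the partners the values were 53.3% for Rpl7, 85.6% for Rpl3, 85.5% for Rpl36a, 72.2% for Rps4x and 31.3% for Rpl37. How reads were split among copies could alter these paralog shares. All paralog shares are of CPM without adjustment for length, and annotated lengths can differ within a pair. Rpl7l1 has 2606 bases and Rpl7 has 1163. After adjustment over the 8 pairs none passed, which 3 libraries per group cannot reach.

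**Figure D3:**
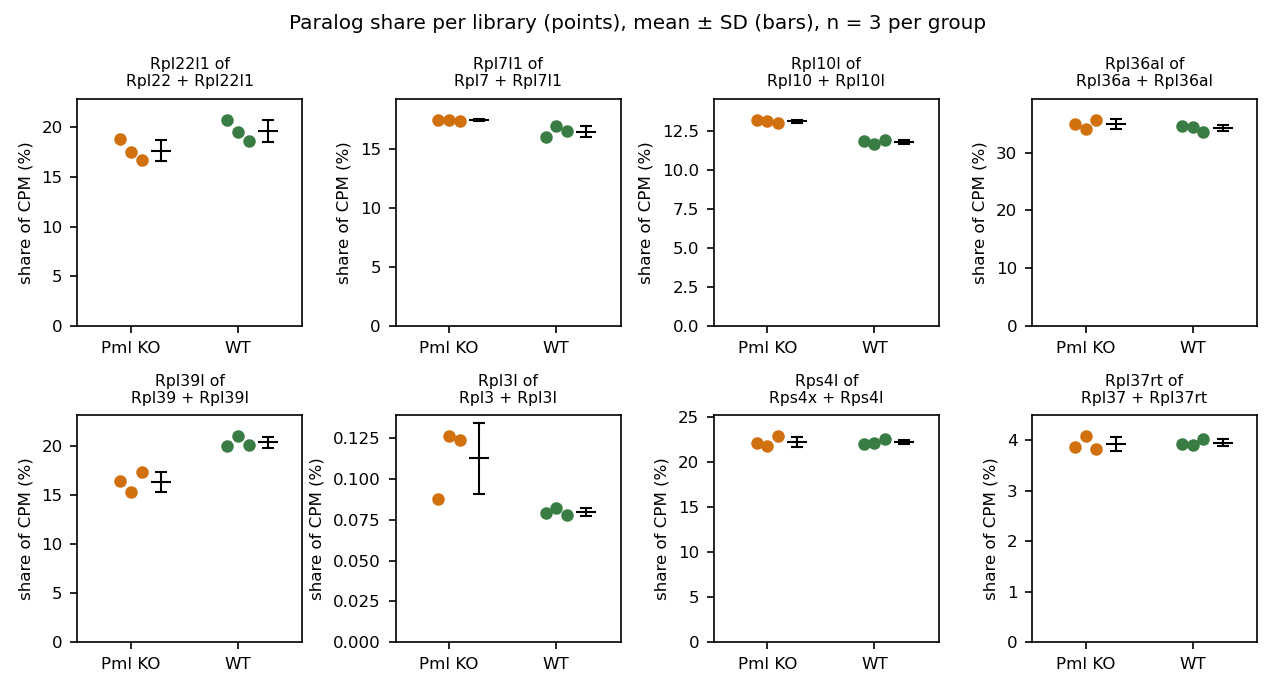
Share of each paralog in the summed CPM of its pair, per library (points, Pml KO left, WT right), with mean ± SD (bars, n = 3). The Pml KO and WT points are apart for Rpl39l (lower in Pml KO) and for Rpl10l, Rpl7l1 and Rpl3l (higher in Pml KO), and overlap for the other 4 pairs.

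By role, the remaining members differed little. The P stalk recruits translation factors to the large subunit, and all 4 of its genes were tested (Rplp0, Rplp1, Rplp2 and Rpl12). None passed limma, edgeR or DESeq2, 1 had an unadjusted p under 0.05, and their log2 fold changes lay between -0.058 and -0.017. Rpl5 and Rpl11, which carry the 5S RNA and can bind Mdm2, and Rpl23, which also binds Mdm2, did not pass limma, edgeR or DESeq2 (0 with an unadjusted p under 0.05). Rpl5 was at 1760 ± 18.4 CPM in Pml KO and 1804 ± 32.5 CPM in WT, and Rpl11 at 898 ± 23.3 CPM in Pml KO and 923 ± 4.64 CPM in WT. Of 12 genes mutated in human Diamond-Blackfan anemia, an inherited failure of red cell production, 0 passed limma, edgeR or DESeq2 and 1, Rps10, had an unadjusted p under 0.05. Their median log2 fold change was -0.038. In the exit tunnel, Rpl4 and Rpl17 had log2 fold changes of 0.0016 and -0.0042. Rps27a, which is made as a fusion with ubiquitin, was at 1098 ± 25.7 CPM in Pml KO and 1130 ± 47.5 CPM in WT.

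Most of the genes, called or not, lay slightly below WT in Pml KO. The log2 fold change was below 0 for 70 of the 82 tested genes, against 48.6% of all tested genes. Their median was -0.034 (quartiles -0.051 and -0.012), against 0.0046 for all tested genes, and it was -0.035 in the large and -0.033 in the small subunit. The groups did not overlap with Pml KO lower for 13 genes (15.9%), against 15.0% of all tested genes, and with Pml KO higher for 3 genes (3.66%), against 15.1%. Besides called genes, those lower without overlap included Rpl3, Rpl5, Rpl7, Rpl14, Rps4l, Rps6 and Rpsa. Those higher without overlap and not called were Rpl3l and Rpl7l1. Rps6, the substrate of S6 kinase, was at 1832 ± 12.4 CPM in Pml KO and 1875 ± 32.5 CPM in WT.

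This lean was seen in 2 of the 3 Pml KO libraries. Relative to the WT mean, the median gene lay at -0.053 on the log2 scale in Pml KO replicate 1, at 0.0059 in replicate 2 and at -0.046 in replicate 3. In WT replicates 1, 2 and 3 the median was -0.0046, 0.018 and -0.015. Thus 76, 33 and 67 of the 82 genes were below the WT mean in Pml KO replicates 1, 2 and 3. The counts in WT replicates 1, 2 and 3 were 44, 21 and 60. The highest Pml KO value was in replicate 2, the library with the fewest reads, for 67 genes. Without Pml KO replicate 2, limma called 25 genes lower in Pml KO (30.5%, against 7.74% of all genes tested there), and the median was -0.050. Among the 19 added were Rplp1, Rplp2, Rpl12 and Rps10. Leaving out any other library gave between 4 and 7 lower genes.

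**Figure D4:**
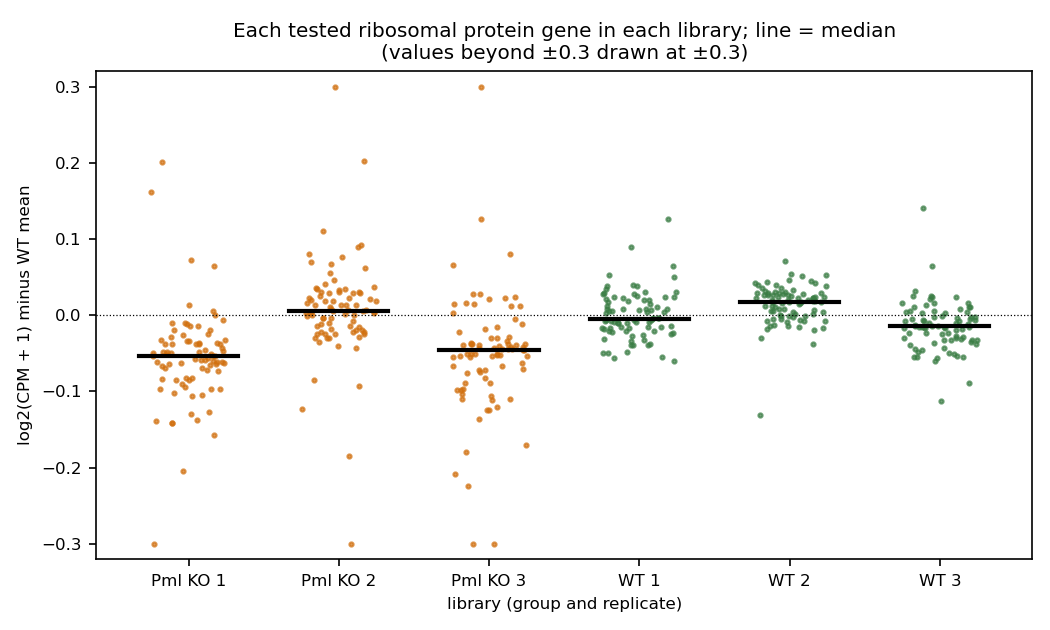
Log2(CPM + 1) of each of the 82 tested genes minus its WT mean, by library (Pml KO left, WT right), with the median as a line and values beyond ±0.3 drawn at ±0.3. The lines of Pml KO replicates 1 and 3 lie at -0.053 and -0.046, and that of Pml KO replicate 2 at 0.0059, within the range of the WT lines.

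The lean also varied with the treatment of base composition and length. Ribosomal protein transcripts are short, with a median annotated length of 831.5 bases among the tested genes, against 2775 bases for all tested genes, and a median GC content of 51.4% against 50.8%. After a linear correction of each library for GC content and log2 length, 43 of the 82 genes were below 0, against 48.5% of all genes with these values, and their median was -0.0010. The part of length and base composition in the lean was not tested beyond this correction. After that correction Rpl39l, Rpl13 and Rps23 were still lower and Rpl10l higher at an adjusted p under 0.05. The log2 fold changes were -0.46 for Rpl39l (limma adjusted p = 1.70e-08), -0.12 for Rpl13, -0.077 for Rps23 and 0.20 for Rpl10l. Rpl22l1 no longer passed at -0.15 (limma adjusted p = 0.0855), nor did Rps21 at -0.067 (limma adjusted p = 0.274).

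**Figure D5:**
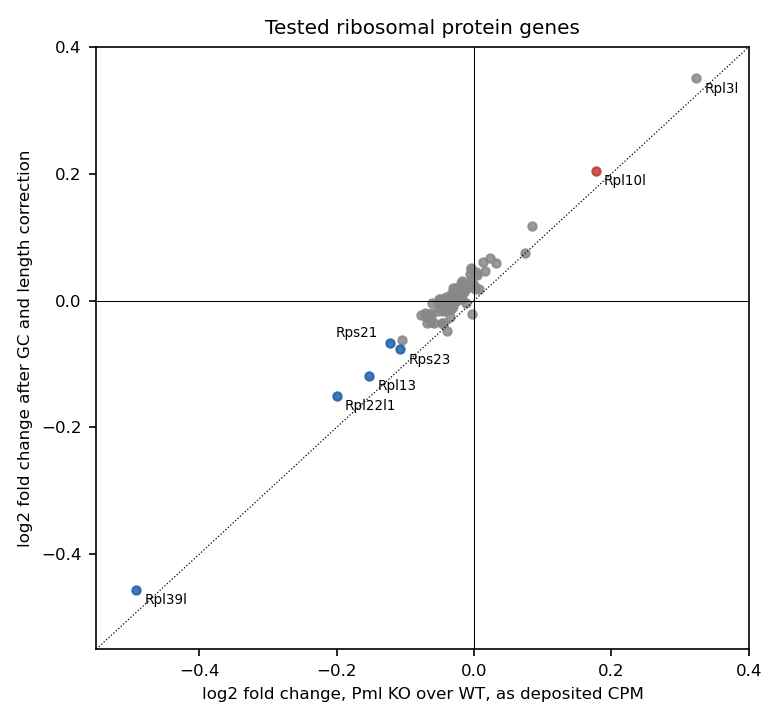
Log2 fold change (Pml KO over WT) of 81 of the 82 tested genes before (x axis) and after (y axis) the correction for GC content and length, with the line of equal values dotted. Most points lie above the dotted line, and Rpl39l stays far below 0 at -0.49 and -0.46.

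The levels of the genes spanned a wide range. Per kilobase of annotated transcript, 72 of the 82 tested genes were above 500 CPM. The highest were Rps2 with 3951 ± 113 CPM per kb in Pml KO and 3990.2 ± 119 in WT, followed by Rplp1, Rps24, Rpl41 and Rps12 at between 2733 and 3448 CPM per kb in either group. The 5 lowest tested were Rpl3l, Rps19bp1, Rpl37rt, Rpl39l and Rpl7l1. Rpl39l stood at 107 ± 1.16 CPM per kb in Pml KO and 150.5 ± 3.35 in WT, and Rpl39 at 720 ± 57.1 in Pml KO and 773 ± 25.7 in WT. The coefficient of variation between libraries had a median over genes of 2.80% in Pml KO and 2.05% in WT. These levels rest on the annotated length, which is 3706 bases for Rps20 and 5179 bases for Rps15a.

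The 5 genes below the filter were Rpl26, Rpl30, Rpl34, Rps27 and Rps27rt. Rpl26 had 0 reads over all Pml KO libraries and 1 over all WT libraries, and Rpl30 had 1 in Pml KO and 7 in WT. Rpl34 had 11 reads in Pml KO and 29 in WT, and Rps27 had 15 in Pml KO and 36 in WT. Rps27rt was listed at 0 in every library. Apart from Rps27rt these encode core proteins whose mRNAs growing cells contain in quantity, and values near 0 are not read as levels here. Of their 50-base stretches, 71.3% for Rpl26, 76.4% for Rpl30, 50.6% for Rpl34 and 98.6% for Rps27 occur in transcripts of other genes. The coding sequences of Rps27 and Rps27rt are identical over all 255 bases. The part of shared sequence in the values near 0 was not tested. Over all 87 genes the median share was 53.6%, and 51 were over 50%. In the deposited table, 31 genes share a locus entry with another gene.

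The promoters of 6 called genes are shown because a pyrimidine tract at the start site is the feature this family is known for. RefSeq (GRCm38.p6) gave a start region for 66 of the 87 genes. Each sequence runs from 50 bases before the start site to 25 bases from it, 5′ to 3′, and capitals mark the longest unbroken run of C and T within 25 bases on either side of the start. Rpl7a and Rpl27a, which have long runs and did not pass the test, are given beside them.
Rpl39l, chr16:10170178-10170252, plus strand: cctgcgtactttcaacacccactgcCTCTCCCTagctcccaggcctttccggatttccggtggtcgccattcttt
Rpl10l, chr12:66284377-66284451, minus strand: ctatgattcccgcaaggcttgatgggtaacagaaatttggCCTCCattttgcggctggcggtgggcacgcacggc
Rpl13, chr8:123102300-123102374, plus strand: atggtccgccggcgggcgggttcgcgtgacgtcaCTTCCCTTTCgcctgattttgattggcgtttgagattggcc
Rps23, chr13:90923072-90923146, plus strand: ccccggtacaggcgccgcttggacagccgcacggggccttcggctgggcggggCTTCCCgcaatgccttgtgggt
Rps21, chr2:180257329-180257403, plus strand: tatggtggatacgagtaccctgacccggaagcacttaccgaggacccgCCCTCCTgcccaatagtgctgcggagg
Rpl22l1, chr3:28805458-28805532, plus strand: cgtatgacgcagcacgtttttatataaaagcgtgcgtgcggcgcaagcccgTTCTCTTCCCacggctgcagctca
Rpl7a, chr2:26910757-26910831, plus strand: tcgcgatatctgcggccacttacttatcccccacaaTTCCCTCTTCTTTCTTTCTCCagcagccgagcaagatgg
Rpl27a, chr7:109519145-109519219, plus strand: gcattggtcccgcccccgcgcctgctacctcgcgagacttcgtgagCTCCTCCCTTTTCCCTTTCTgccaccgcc
A run of at least 8 C or T was found in 32 of the 66 genes (48.5%), against 22.3% of the 27025 genes in the RefSeq table, members included. On the opposite strand the share was 7.58% of the 66 genes, against 24.4% of all. The longest run was 21 bases in Rpl7a and 20 in Rpl27a, and 8 in Rpl39l, 5 in Rpl10l, 10 in Rpl13, 6 in Rps23, 7 in Rps21 and 10 in Rpl22l1. The Rpl39l run begins 25 bases before the start site, at the edge of the window, and the base before it is also a C. The called genes thus had runs both below and above 8 bases. A run of these letters at an annotated start is a description and does not show that the mRNA begins there.

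Other genes of the translation pathway were set beside the ribosomal protein genes. Fau, a fusion that yields a small-subunit protein, was at 617 ± 20.0 CPM in Pml KO and 632 ± 11.2 CPM in WT. It did not pass (limma adjusted p = 0.437). Of 18 translation factors and other genes whose mRNAs are known for such tracts, 1 was higher, 1 lower and 16 did not pass, with a median of 0.0033. Eif3l, a subunit of the initiation factor eIF3, was higher in Pml KO at 462 ± 9.84 CPM, against 431 ± 0.865 CPM in WT (limma adjusted p = 0.0149). Eif3f, another eIF3 subunit, was lower at 364 ± 10.7 CPM in Pml KO, against 401 ± 12.6 CPM in WT (limma adjusted p = 0.00321). Eef1a1, which carries aminoacyl-tRNA to the ribosome, was at 14208 ± 118 CPM in Pml KO and 14606 ± 189 CPM in WT and did not pass (limma adjusted p = 0.134). Of 11 chaperones and partners that escort new ribosomal proteins, a list that also holds Rps19bp1 and shares Nap1l1 with the translation factors, 0 passed limma, edgeR or DESeq2 and 0 had an unadjusted p under 0.05, with a median of -0.024.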

How the data were processed

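Polyadenylated RNA of 3 Pml KO and 3 WT libraries (TruSeq RNA kit, per the labels' protocols) was sequenced. The submitters' processing notes name cutadapt, TopHat, edgeR and the build mm10. Not given in the sources used here were their versions, the annotation, the read counter, strandedness and the handling of multi-mapping reads. In the deposited table are CPM per library and, per the file headers, the authors' log2 fold change, log2 mean CPM, p-value and FDR.

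Of 25833 rows, 1097 without values and 315 repeats were removed. From the values, 100% of CPM were whole reads within 0.01 of a read, so counts were recovered. The floor of 3 reads is 0.272 to 0.513 CPM, and covers counting error only. Every library pair differed by more than sampling noise (chi-square per degree of freedom 1.33 to 1.64 within and 3.19 to 4.53 between groups).

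The main test was limma 3.58.1 with an intensity trend on log2(CPM + 1), after filterByExpr, adjusted over 12435 genes. EdgeR 4.0.16 on recovered counts (TMM factors 0.997 to 1.003) called 835 genes higher and 985 lower; DESeq2 1.42.0 was also run. Sums and shares were compared by exact permutation. Alternatives covered the pseudocount, filter, scaling, GC and length, replicate block and each library left out. On simulated counts over 12425 genes for this comparison, 90% of ribosomal protein genes lowered 1.1-fold and 100% at 1.25-fold were recovered. Of other genes changed as much, 8% and 54% were recovered, and 7 of 165 calls were false. These counts were drawn gene by gene, with the same dispersion for all genes and no shift shared within a library. Recovery in the real libraries may be lower. Transcript length and GC content came from GENCODE M21, as the RefSeq-linked coding transcript of lower median length per gene.

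The members and lists were chosen with earlier results of these data known. Named genes were all called members, the 3 highest and 3 lowest log2 fold changes, the 5 highest and 5 lowest CPM per kb, paralog pairs and role lists; other names were chosen after their values were seen. Some items are not reported here.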

Additional observations from a re-analysis of the deposited data

How the results depend on the processing

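Rpl39l passed under all 16 alternatives, with log2 fold changes between -0.51 and -0.46. Rpl13, Rps23 and Rpl10l passed under 15 and were lost with no filter, where 0 members were higher and 1 lower, as 118 genes were higher and 246 lower among all; more genes tested is part of that setting, and the cause was not tested. DESeq2 called 333 genes higher and 463 lower among all. After the GC and length correction the members' median was -0.0010, without and with the replicate block. With the replicate block 18 of 82 members were lower and 2 higher, against 1199 lower and 1138 higher of all 12435 genes. The share of lower members was thus above that of all genes. With the correction as well, 5 members were lower and 4 higher, against 1150 lower and 1056 higher of 12368 genes. Rpl22l1 was among these 5 (limma adjusted p = 0.00369). The deviations of same-numbered libraries correlated at r = 0.0755, 0.0603 and 0.0136 over all genes and at 0.302, -0.121 and 0.186 over members. The values over all genes were each below 0.1, yet all 6 libraries correlated best with their own number. These matches are not independent, since each r is shared by the 2 libraries of a number. The numbers were not taken to pair the libraries in the main test. No other source pairs them, so whether they are paired is not known. Leaving out 1 library gave 4 to 25 lower and 1 higher member, a median of -0.050 to -0.025, and 512 to 872 higher and 632 to 980 lower genes overall. The 25 lower members came without Pml KO replicate 2 and the 512 higher genes without WT replicate 2; the 632 lower genes came without WT replicate 1, and the 4 lower members without it or without Pml KO replicate 3. The sums of all members had log2 ratios of -0.052 to -0.023, of large-subunit genes -0.051 to -0.024 and of small-subunit genes -0.054 to -0.021. At this depth 3 reads equal 0.272 to 0.513 CPM, so genes near that level could not be compared.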
